A study of Mus musculus with 2 samples.

Results

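The *Fos* and *Jun* family was followed across the cell classes of the mouse hippocampus by single-nucleus RNA sequencing (snRNA-seq). The 6 genes *Fos*, *Fosb*, *Fosl2*, *Jun*, *Junb* and *Jund* were taken by symbol from the 32285 genes of the count matrices, and all 6 were found. The family was set apart in part because *Fos* and *Jun* differ in opposite directions between the libraries in neurons, so that contrast is given here as a description. A pool of each genotype was sequenced as 1 library, and the libraries were compared. Both consist of male mice aged 9 months that carry the PS19 transgene, a human tau gene with a disease mutation under the mouse prion protein promoter, and the methods give 5 mice per pool. The PS19 pool has intact *Zbp1*, and the PZKO pool lacks *Zbp1*, which encodes a sensor of Z-form nucleic acids. Mice without the transgene were not analysed here. Since each genotype has 1 library, nothing below rests on replicates or on a test: a difference is between these libraries, and its interval covers counting error only. What comes from genotype and what from the preparation of each pool cannot be told apart.

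Fos and Jun proteins are basic leucine zipper factors that pair to form AP-1, which binds DNA at short palindromic sites. Jun proteins pair with each other or with a Fos protein, whereas Fos proteins need a Jun partner. *Fos*, *Fosb* and *Junb* are immediate early genes that neurons transcribe within minutes of synaptic activity. *Jun* is known in neurons for its induction after axon injury and cell stress and is activated by the JNK kinases, *Fosl2* is a slower family member, and *Jund* is broadly expressed and often opposes growth.

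All 6 genes are compact in the GENCODE M21 annotation of mm10. *Fos* (ENSMUSG00000021250) spans 3384 bases on the plus strand of chromosome 12, from 85473890 to 85477273. *Jun* (ENSMUSG00000052684) spans 3189 bases on the minus strand of chromosome 4, from 95049034 to 95052222. *Jun* and *Jund* have 1 exon, while *Fosl2* is the longest member with 22042 bases. Single-exon transcripts look alike before and after splicing, so nuclear and stray cytoplasmic RNA of *Jun* and *Jund* are counted alike.

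The 250 bases before the start of *Fos* and of *Jun* are shown because these genes differed in opposite directions in neurons. They are RefSeq sequences of GRCm38.p6, read 5′ to 3′ on the strand of the gene, at chr12:85473640-85473889 (plus) and chr4:95052223-95052472 (minus). Capitals mark matches to the motifs searched on both strands.
Fos promoter: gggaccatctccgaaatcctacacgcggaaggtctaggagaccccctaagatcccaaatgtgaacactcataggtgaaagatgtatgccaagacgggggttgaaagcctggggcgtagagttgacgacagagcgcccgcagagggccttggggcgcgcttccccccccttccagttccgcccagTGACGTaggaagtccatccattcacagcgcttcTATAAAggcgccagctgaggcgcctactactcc
Jun promoter: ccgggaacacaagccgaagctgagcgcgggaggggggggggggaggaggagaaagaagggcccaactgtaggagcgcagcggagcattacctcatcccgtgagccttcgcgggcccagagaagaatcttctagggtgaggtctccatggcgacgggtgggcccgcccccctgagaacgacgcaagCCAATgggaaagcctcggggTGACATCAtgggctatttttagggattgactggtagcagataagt

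The motifs searched were TGACGTCA (the full cAMP response element), its shorter core TGACGT, TGACATCA (an AP-1 variant first known from *Jun*), TGANTCA (the AP-1 site), the TATA box as TATAAA, the CAAT box as CCAAT, and the CArG box bound by SRF. In *Fos*, TGACGT lay 66 to 61 bases and TATAAA 33 to 28 bases before the start. In *Jun*, CCAAT lay 65 to 61 bases and TGACATCA 45 to 38 bases before the start. Of all 32851 promoters of the same length, 6.47% held TGACGT, which includes every match to the full element, 2.93% held TGACATCA, 12.4% held TATAAA and 33.8% held CCAAT. The windows of *Fos* and *Jun* end at the GENCODE start. The RefSeq start of *Fosl2*, however, lay 671 bases inside the GENCODE gene and that of *Jund* 1210 bases ahead of it, so their windows are not the bases next to the GENCODE start. *Junb* matched CCAAT 36 to 32 bases before its RefSeq start, and *Fosb*, *Fosl2* and *Jund* matched none of the motifs in their RefSeq windows. The search covered 250 bases per gene, so a motif without a match, such as the CArG box in *Fos*, can still lie outside the window. The matches are of letters and are not measured binding.

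The PS19 library held 11469 nuclei and 116488513 unique molecular identifiers (UMIs), and the PZKO library 10920 nuclei and 171167884 UMIs, with medians of 5642 and 8342.5 UMIs per nucleus. After filters on quality and doublets, 9590 and 9307 nuclei were kept, of which 30 nuclei per library shared a barcode with the other library. In all nuclei kept, *Zbp1* had 92 of the 100729375 UMIs of PS19 and 38 of the 151995959 UMIs of PZKO. Which part of the gene the allele removes is not given in the sources used here. The nuclei formed 32 clusters, and 28 of them fell into 12 classes by their markers. Hippocampal neurons were present, with clusters that matched the markers of dentate granule cells, CA1, CA3 and subiculum, beside excitatory clusters that matched markers of cortical deep layers. *Ttr*, a defining transcript of choroid plexus that can spread through a preparation as free RNA, stood at 167 CPM in PS19 and 18.0 CPM in PZKO in excitatory neurons, where CPM are counts per 1000000 UMIs of the class.

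In excitatory neurons, *Fos*, *Fosb* and *Fosl2* were higher in PZKO and *Jun* was lower. The class held 2760 PS19 nuclei and 2999 PZKO nuclei. *Fos* stood at 5.21 CPM in PS19 (305 UMIs) and at 10.2 CPM in PZKO (953 UMIs), a log2 ratio of PZKO over PS19 of 0.97 (95% interval 0.78 to 1.16). *Fosb*, whose product can accumulate with repeated activity, stood at 1.61 CPM and 3.79 CPM, a log2 ratio of 1.24 (0.91 to 1.58), or 0.68 with every nucleus thinned to 3000 UMIs. *Fosl2* stood at 5.92 CPM and 10.1 CPM, a log2 ratio of 0.78 (0.60 to 0.96). These 3 genes of the *Fos* branch passed a fold of 1.5 upward, among 3.36% of the 17601 genes with at least 50 UMIs in this class. With equal weights for the excitatory clusters the log2 ratios were 0.56 for *Fos*, 0.82 for *Fosb* and 0.46 for *Fosl2*. Those of *Fos* and *Fosl2* then fell short of the fold, so passing it depends on the mix of clusters. *Fosl2* also fell short of it, at 0.55, with every nucleus thinned to 3000 UMIs.

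*Jun* stood at 32.0 CPM in PS19 (1874 UMIs) and at 14.3 CPM in PZKO (1330 UMIs), a log2 ratio of −1.17 (−1.27 to −1.06). It was the member that passed the fold of 1.5 downward, as did 6.4% of the genes in the class. The other *Jun* genes differed less. *Junb*, the activity-induced *Jun* gene, stood at 17.5 CPM and 19.5 CPM, a log2 ratio of 0.15 (0.04 to 0.27), and its sign turned to −0.07 when every cluster had the same weight and to −0.44 in the dentate granule, CA1 and CA3-like clusters alone. *Jund* stood at 21.9 CPM and 17.1 CPM, a log2 ratio of −0.36 (−0.46 to −0.25). The family as a whole thus spread from −1.17 to 1.24 around a median of 0.47, while the median of all genes in the class was −0.08.

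Several transcript groups were, like *Jun*, lower in PZKO in this class, by UMIs summed over its nuclei. In excitatory neurons, 77 of 77 ribosomal protein genes were below 0, with a median log2 ratio of −0.46. The 13 mitochondrially encoded genes had a median of −0.71 and summed to 4303 CPM in PS19 and 2656 CPM in PZKO. Genes induced by handling and heat shock had a median of −0.59, with 14 of 14 below 0, against 61.8% of all genes in the class, and 7 past the fold of 1.5 downward, against 6.4% of all genes. Genes that span under 5000 bases, like *Fos*, *Jun*, *Junb* and *Jund*, had a median of −0.29, and genes of 50000 bases or more a median of 0.05. Relative to the short genes, the log2 ratio was 1.26 for *Fos*, 0.44 for *Junb* and −0.88 for *Jun*, and that of *Jund* came to −0.07. The choroid plexus transcripts were lower as well, and 6 of 6 were below 0, with *Folr1* at 0.99 CPM and 0.19 CPM and *Ttr* as above. The part of these groups in the *Jun* difference was not tested.

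**Figure D1:**
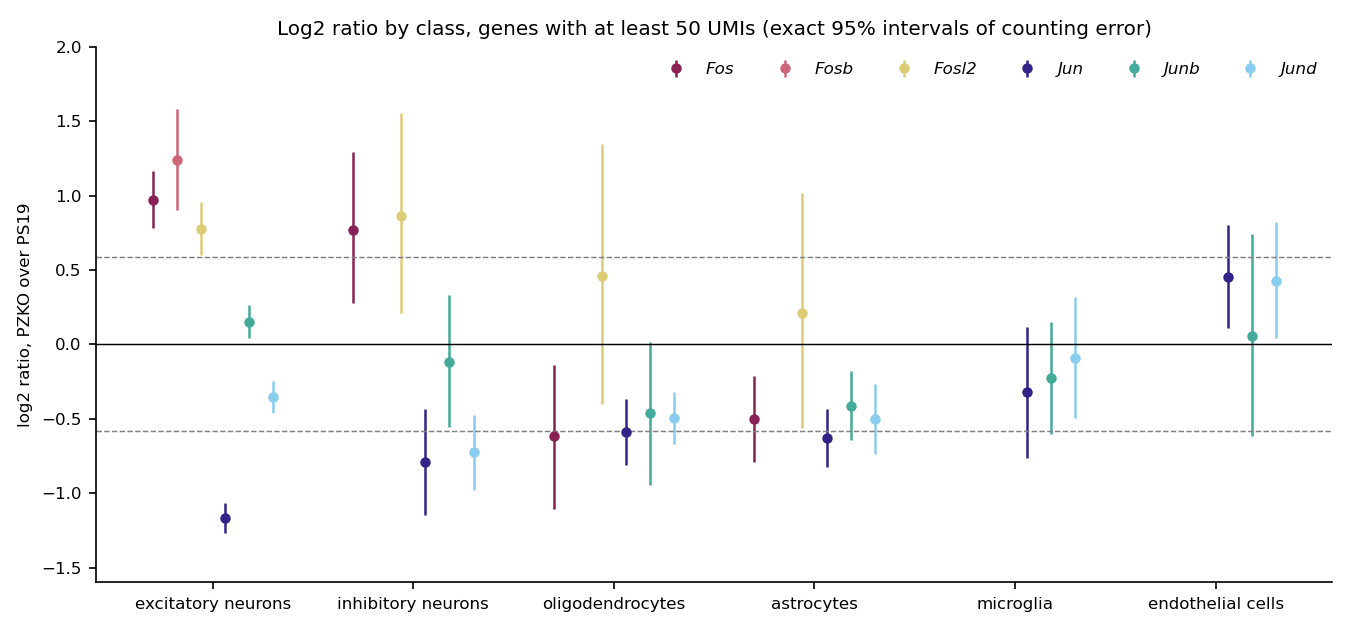
Log2 ratio of PZKO over PS19 (vertical axis) for each family member with at least 50 UMIs in the 6 classes of at least 300 nuclei per library (horizontal axis); bars are exact 95% intervals of counting error and dashed lines mark a fold of 1.5. In both neuronal classes *Fos* and *Fosl2* lie above 0 and *Jun* and *Jund* below it, and in endothelial cells *Jun* and *Jund* lie above 0.

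Inhibitory neurons, with 537 PS19 nuclei and 613 PZKO nuclei, had fewer UMIs of every member. *Fos* stood at 3.91 CPM in PS19 (45 UMIs) and at 6.68 CPM in PZKO (135 UMIs), a log2 ratio of 0.77 (0.28 to 1.29). *Fosl2* stood at 2.26 CPM and 4.10 CPM, a log2 ratio of 0.86 (0.21 to 1.56) that came to 0.17 with every nucleus thinned to 3000 UMIs. *Jun* stood at 11.6 CPM (134 UMIs) and 6.73 CPM (136 UMIs), a log2 ratio of −0.79 (−1.15 to −0.44). *Jund* differed about as much as *Jun* here, from 22.4 CPM to 13.5 CPM, a log2 ratio of −0.73 (−0.98 to −0.47). *Junb* stood at 6.16 CPM and 5.69 CPM, and its interval spanned 0. *Fosb*, with 6 UMIs in PS19 against 21 in PZKO, was left out of the counts. Of the 5 members with at least 50 UMIs, 2 passed the fold of 1.5 upward, among 2.74% of genes in the class, and 2 passed it downward, among 6.17% of genes. Of genes that span under 5000 bases, 22.3% passed the fold downward, with a median of −0.33. Relative to these short genes *Jun* was at −0.46 and *Jund* at −0.40, both short of the fold, and *Fos* was at 1.10. In these neurons, too, the ribosomal protein genes (median −0.54), the mitochondrially encoded genes (−1.19) and the genes of handling and heat shock (−0.59) were lower in PZKO, and their part in the result was not tested.

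The *Fos* difference was not spread evenly over the 9 excitatory clusters. In the cluster that matched the markers *Exph5* and *Prr16* (336 PS19 nuclei and 626 PZKO nuclei), *Fos* stood at 10.3 CPM in PS19 (89 UMIs) and at 21.6 CPM in PZKO (447 UMIs), a log2 ratio of 1.07 (0.74 to 1.41). Among excitatory clusters, the top 10 genes by fold of this cluster were led by *Rorb* and held *Exph5* but not *Prr16*. It made up a larger share of the excitatory nuclei in PZKO than in PS19. Whether its nuclei came from hippocampus or from cortex was not tested. In the deep layer-like cluster *Fos* stood at 6.10 CPM (35 UMIs) and 18.3 CPM (180 UMIs), a log2 ratio of 1.58 (1.05 to 2.15). In the CA1-like cluster it stood at 5.43 CPM and 4.89 CPM, a log2 ratio of −0.15 (−0.69 to 0.40). The CA3-like cluster held 30 *Fos* UMIs in PS19 against 17 in PZKO, or 3.63 CPM and 1.65 CPM. *Fos* was thus lower in PZKO there. Without the highest nucleus of each library its log2 ratio was −1.27 (−2.36 to −0.25), an interval below 0 on few UMIs. The clusters led by *Atp10b* and *Cdh20* (−0.28), led by *Cpa6* and *Cdc14a* (−0.06) and matching subiculum (0.28) had intervals that spanned 0. So did the *Tshz2*-high cluster, with 6 *Fos* UMIs in PS19 against 20 in PZKO and a log2 ratio of 0.91 (−0.46 to 2.51).

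Dentate granule cells stood apart in another way. In the dentate granule-like cluster *Fos* stood at 1.70 CPM in PS19, on 26 UMIs in 1009 nuclei, and at 4.39 CPM in PZKO, on 49 UMIs in 513 nuclei, a log2 ratio of 1.37 (0.66 to 2.12). Of the 49 UMIs in PZKO, 29 came from 1 nucleus, which also held 32 UMIs of *Jun*, 29 of *Jund* and 17 of *Fosl2*. Without the highest nucleus of each library the log2 ratio was 0.26 (−0.68 to 1.19), so the *Fos* difference in this cluster rested on a single nucleus. Over the dentate, CA1-like and CA3-like clusters, *Fos* stood at 3.26 CPM and 3.79 CPM, a log2 ratio of 0.22 (−0.16 to 0.60) that turned to −0.062 (−0.47 to 0.34) without the highest nucleus of each library. In the other excitatory clusters it stood at 7.78 CPM and 14.2 CPM, a log2 ratio of 0.87 (0.64 to 1.10). The difference between these groups of clusters was not tested.

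*Fosb* followed *Fos* in the *Exph5* and *Prr16*-like cluster, with 3.24 CPM in PS19 on 28 UMIs, 10.5 CPM in PZKO on 217 UMIs, and a log2 ratio of 1.70 (1.12 to 2.32). A single PZKO nucleus there held 44 of its UMIs, and without the highest nucleus of each library the log2 ratio was 2.09. In the CA1-like cluster *Fosb* stood at 2.19 CPM on 21 UMIs in PS19 and at 0.92 CPM on 13 UMIs in PZKO. In the dentate, CA1-like and CA3-like clusters together, *Fosb* had 35 and 34 UMIs, a log2 ratio of −0.14 (−0.87 to 0.58), so the direction in excitatory neurons as a whole did not hold there. *Fosl2* was again highest in PZKO relative to PS19 in the *Exph5* and *Prr16*-like cluster, at 4.28 CPM and 13.4 CPM (1.65, 1.15 to 2.18). Its own level was highest in the cluster led by *Atp10b* and *Cdh20*, at 17.3 CPM in PS19 and 24.6 CPM in PZKO.

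In the *Exph5* and *Prr16*-like cluster 4 of the 6 members, the *Fos* branch and *Junb*, passed the fold of 1.5 upward, among 3.58% of genes there, and 1, *Jun*, passed it downward, among 3.75% of genes.

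**Figure D2:**
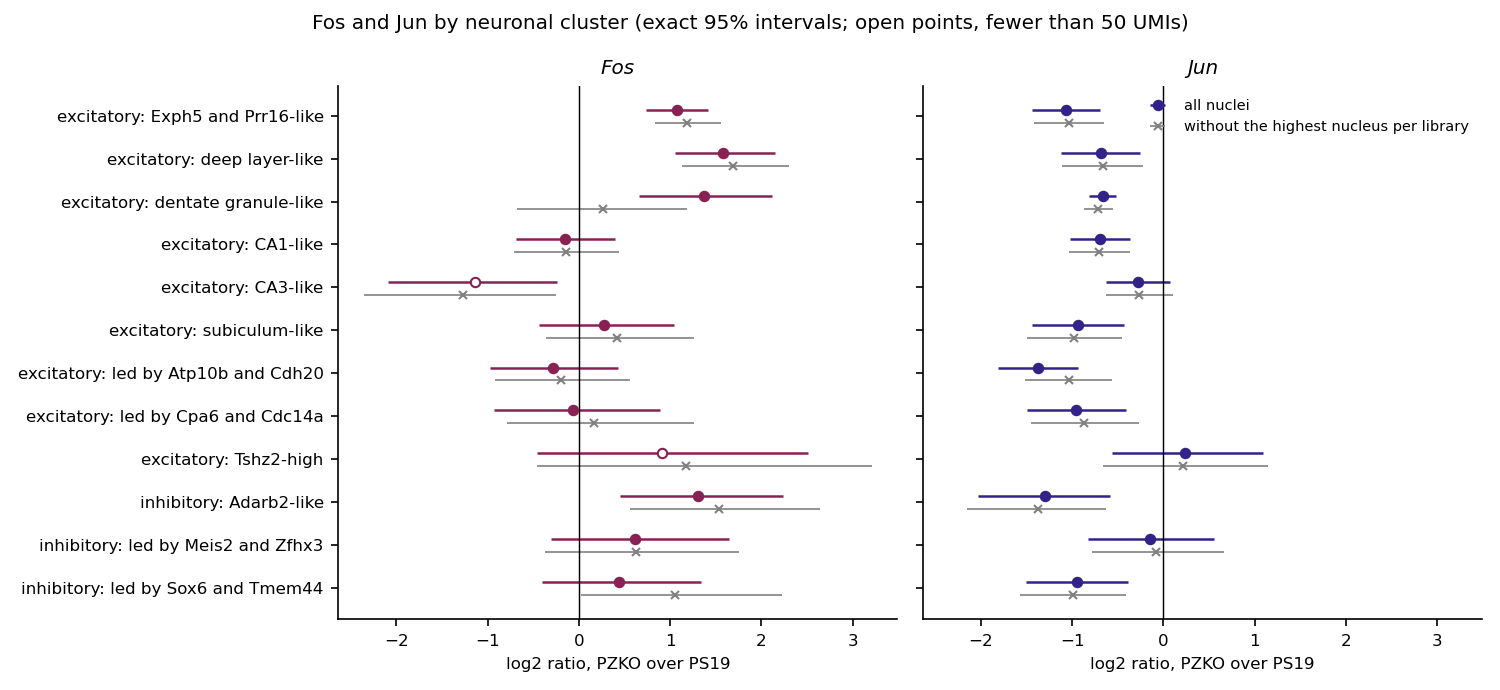
Log2 ratio of PZKO over PS19 (horizontal axis) for *Fos* (left) and *Jun* (right) in the 9 excitatory and 3 inhibitory clusters (vertical axis), with exact 95% intervals; grey crosses leave out the nucleus with the most UMIs of the gene in each library, and open points have fewer than 50 UMIs. *Fos* lies well above 0 in the *Exph5* and *Prr16*-like and deep layer-like clusters, its dentate granule-like value drops from 1.37 to 0.26 without 1 nucleus per library, and *Jun* lies below 0 in 8 of the 9 excitatory clusters.

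Among the excitatory clusters *Jun* was highest in the dentate granule-like cluster. It stood there at 74.1 CPM in PS19 (1136 UMIs) and at 46.7 CPM in PZKO (521 UMIs), a log2 ratio of −0.67 (−0.82 to −0.52). In the other excitatory clusters its level lay between 8.67 CPM and 34.3 CPM in PS19 and between 6.29 CPM and 13.4 CPM in PZKO. The intervals of the dentate level did not reach those of any other excitatory cluster in either library. Of the *Jun* UMIs of excitatory neurons in PS19, 60.6% lay in the dentate granule-like cluster, which held 36.6% of the nuclei, and in PZKO 39.2% of the UMIs lay in 17.1% of the nuclei.

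This cluster was rich in *Jun* and made up a larger share of the excitatory nuclei in PS19, so the value over all excitatory neurons also depends on the mix of clusters. Without the dentate granule-like cluster *Jun* stood at 17.1 CPM and 9.87 CPM, a log2 ratio of −0.79 (−0.94 to −0.65). With equal weights for the clusters it was −0.74. Within clusters *Jun* was lower in PZKO in 8 of 9. Per cluster, 49.5% to 65.1% of all genes were below 0, and 68.2% to 84.7% of genes that span under 5000 bases. The lowest *Jun* ratio was in the cluster led by *Atp10b* and *Cdh20*, from 34.3 CPM to 13.2 CPM (−1.37, −1.81 to −0.94). There 1 PS19 nucleus held 26 of 109 UMIs, and the log2 ratio without the highest nuclei was −1.04. The CA3-like cluster (−0.28, −0.63 to 0.07) and the *Tshz2*-high cluster (0.24, −0.56 to 1.09) had intervals that spanned 0.

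*Junb* and *Jund* behaved differently from *Jun* across the same clusters. *Junb* stood at 20.4 CPM in PS19 and 34.8 CPM in PZKO in the *Exph5* and *Prr16*-like cluster (0.77, 0.53 to 1.02), and at 25.3 CPM and 14.6 CPM in the CA1-like cluster (−0.79, −1.07 to −0.52). These values lie on opposite sides of 0, and the small ratio over all excitatory neurons averages over them. *Jund* was at or below 0 in 9 of 9 clusters, in which 68.2% to 84.7% of genes that span under 5000 bases were below 0. Its log2 ratio lay between −1.25 in the *Tshz2*-high cluster (25.6 CPM and 10.7 CPM) and 0.00 in the *Exph5* and *Prr16*-like cluster (22.0 CPM and 21.9 CPM).

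**Figure D3:**
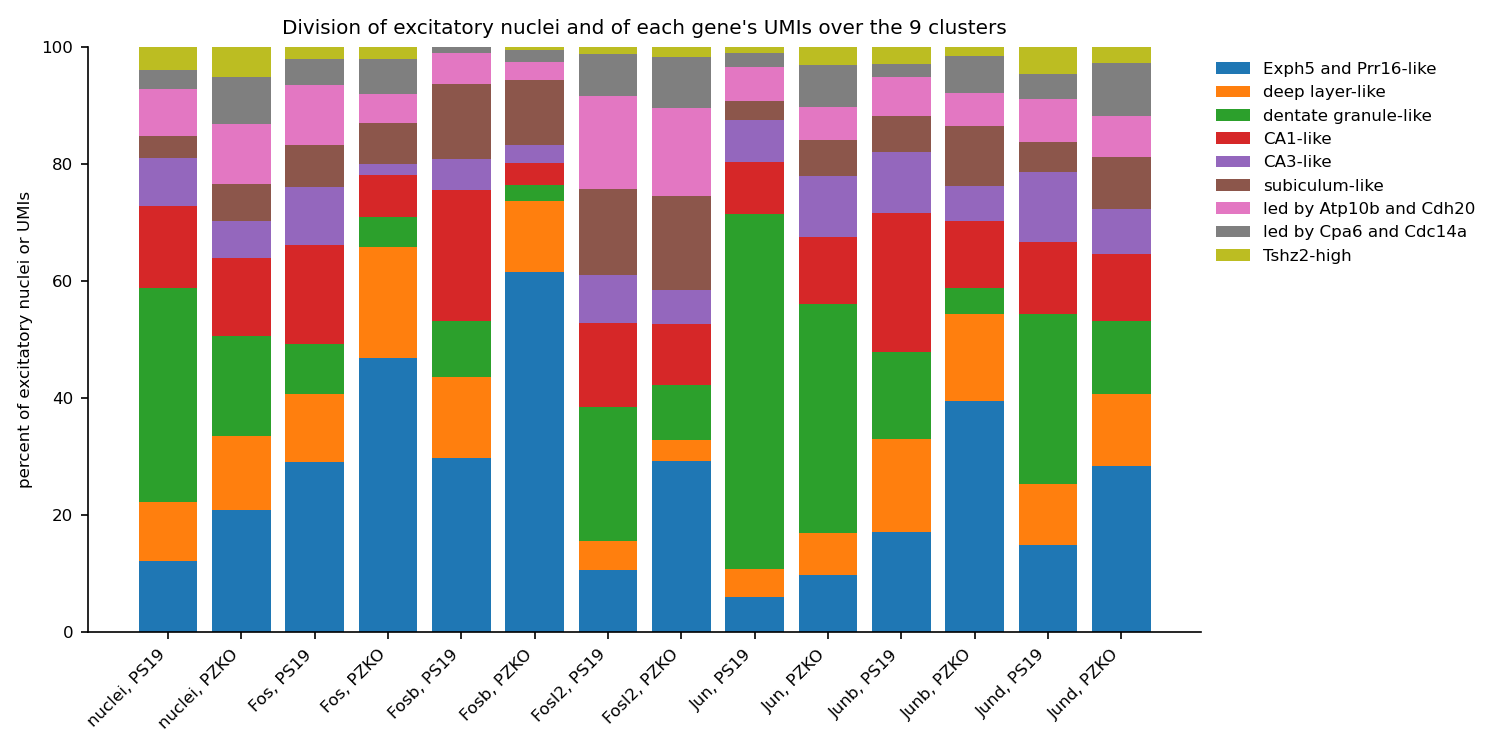
Percent of excitatory nuclei (first 2 bars) and of the UMIs of each family member in excitatory neurons (other bars) that lay in each of the 9 excitatory clusters, for PS19 and PZKO. The dentate granule-like cluster holds 60.6% of *Jun* UMIs in PS19 and 8.5% of *Fos* UMIs, and the *Exph5* and *Prr16*-like cluster holds 46.9% of *Fos* UMIs and 61.5% of *Fosb* UMIs in PZKO.

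*Fos* was above 0 in 3 of 3 inhibitory clusters, but its interval lay above 0 in 1, the *Adarb2*-like cluster. The cluster led by *Sox6* and *Tmem44* held 17 and 42 *Fos* UMIs, and that led by *Meis2* and *Zfhx3* 13 and 42. With all nuclei the intervals of both spanned 0. Without the highest nuclei their log2 ratios were 1.05 (0.02 to 2.22) and 0.63 (−0.38 to 1.75). In the cluster led by *Sox6* and *Tmem44*, 1 PS19 nucleus held 7 of the 17 *Fos* UMIs, and leaving it out raised the ratio. In the *Adarb2*-like cluster *Fos* stood at 4.18 CPM in PS19 and 10.3 CPM in PZKO (1.30, 0.45 to 2.24), on 15 and 51 UMIs. *Jun* stood there at 13.4 CPM and 5.45 CPM (−1.29, −2.03 to −0.59). The cluster led by *Sox6* and *Tmem44* had *Jun* at 11.2 CPM and 5.84 CPM (−0.95, −1.51 to −0.38), and the cluster led by *Meis2* and *Zfhx3* at 10.1 CPM and 9.13 CPM (−0.15, −0.82 to 0.55). *Jund* was below 0 in the 3 inhibitory clusters, at −0.86, −0.75 and −0.60. Per inhibitory cluster, 51.4% to 56.4% of all genes were below 0, and 83.0% to 83.5% of genes that span under 5000 bases.

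*Fos* and *Jun* UMIs were found in a minority of nuclei, and a single UMI can be free RNA. Scaled by *Ttr*, the library-wide profile was estimated at 23.5% of the UMIs of excitatory neurons in PS19 and 28.0% in PZKO. The same scaling gave 116% and 128% in oligodendrocytes, so it is not a measured share of free RNA. The shares below are of nuclei with a UMI and not of nuclei that express the gene. In excitatory neurons 5.94% of PS19 nuclei and 14.0% of PZKO nuclei had a *Fos* UMI, at median depths of 18781.5 and 28003 UMIs per nucleus. With every nucleus thinned to 3000 UMIs, the shares were 1.41% (exact binomial 95% interval 1.01% to 1.93%) and 3.04% (2.46% to 3.72%), with 3 and 7 shallower nuclei left out. For *Jun* the unthinned shares were 35.7% and 25.4%, and the thinned shares 9.87% (8.78% to 11.0%) and 4.88% (4.14% to 5.71%). In choroid plexus cells, which held 1 *Fos* UMI in PS19 and 0 in PZKO, the thinned share for *Fos* was 0.39% in PS19 and 0 of 96 nuclei in PZKO, at median depths of 8974 and 12677.5 UMIs, and for *Jun* it was 2.34% in PS19 and again 0 of 96 in PZKO. A count of 0 in 96 nuclei allows a share of nuclei with a UMI of up to 3.77% (exact bound), and since a gene of a few CPM mostly goes unseen at 3000 UMIs, it sets no limit on expression. Nuclei with a UMI of both genes were few. At 3000 UMIs, 2 PS19 nuclei and 8 PZKO nuclei among excitatory neurons had both, while 37 and 83 had *Fos* without *Jun* and 270 and 138 had *Jun* without *Fos*. A *Jun* UMI was in 5.13% of PS19 nuclei with a *Fos* UMI and in 9.93% of those without. In PZKO these shares were 8.79% and 4.76%. Both genes are sparse at this depth, so the low counts do not show that they lie in separate nuclei.

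Outside neurons the family had its own order of levels. *Fos* was highest in astrocytes, at 25.1 CPM in PS19 and 17.8 CPM in PZKO, and its intervals there did not reach those of any other class. *Jun* was highest in endothelial cells, at 103 CPM and 141 CPM, followed by astrocytes at 56.6 CPM and 36.6 CPM. In PS19 the *Jun* intervals of astrocytes, ependymal cells (47.2 CPM) and oligodendrocyte precursor cells (45.8 CPM) overlapped, so their order is not resolved. *Jund* was highest in endothelial cells too, at 83.1 CPM and 112 CPM, with oligodendrocytes (66.7 CPM) and ependymal cells (62.5 CPM) next in PS19 by overlapping intervals. *Junb* had its highest levels in microglia, astrocytes and endothelial cells, at 39.2 CPM, 37.6 CPM and 32.0 CPM in PS19, with overlapping intervals. *Fosb* had at least 50 UMIs in excitatory neurons alone among the 12 classes, and had at most 10 UMIs over both libraries in each glial and vascular class.

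**Figure D4:**
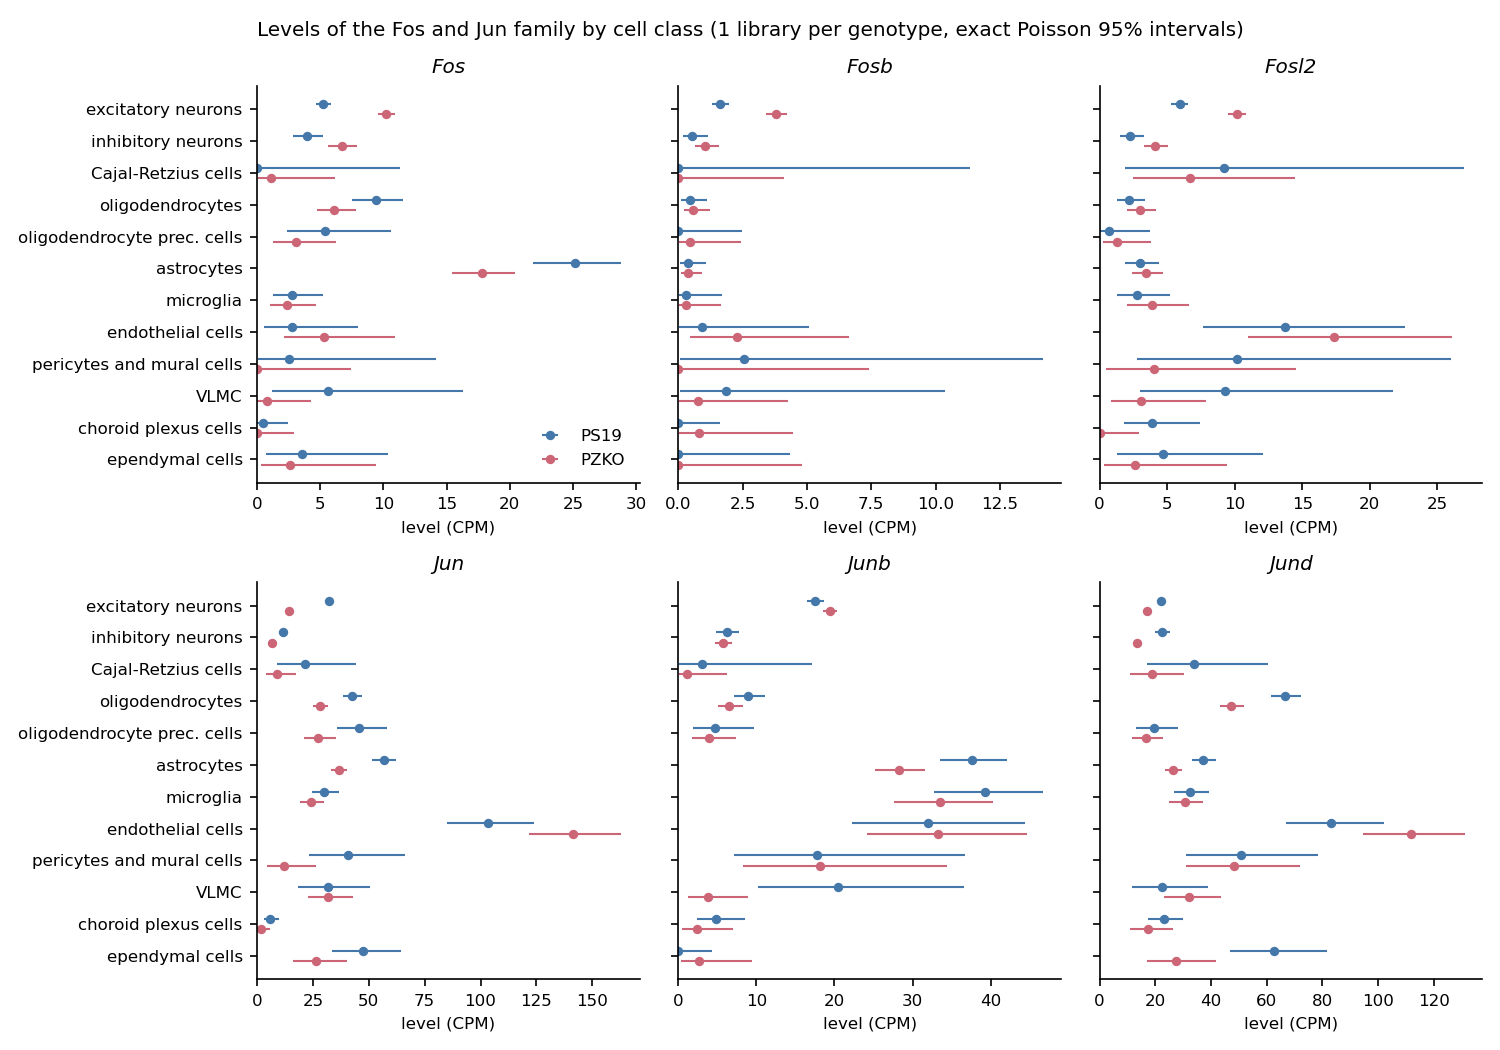
Level of each family member in CPM (horizontal axes, each from 0) in the 12 cell classes (vertical axis) for PS19 (blue) and PZKO (red), with exact Poisson 95% intervals. *Fos* is highest in astrocytes, *Jun* and *Jund* in endothelial cells, and small classes such as Cajal-Retzius cells have wide intervals.

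In oligodendrocytes and astrocytes *Fos* was lower in PZKO, but not under every setting. Microglia, with 9 and 8 *Fos* UMIs, and oligodendrocyte precursor cells, with 8 and 7, were too sparse to compare. *Fos* stood at 9.38 CPM in PS19 (87 UMIs) and 6.11 CPM in PZKO (64 UMIs) in oligodendrocytes, a log2 ratio of −0.62 (−1.11 to −0.13), which turned to 0.43 with equal weights for the clusters. The smallest of the 4 oligodendrocyte clusters, with 15 PS19 nuclei and 29 PZKO nuclei, then counts as much as each of the others. In astrocytes the log2 ratio of *Fos* was −0.50 (−0.79 to −0.21), which came to −0.04 after subtraction of a library-wide profile scaled by *Ttr* and to −0.09 relative to genes that span under 5000 bases. That subtraction took away 57.2% of the astrocyte UMIs in PS19 and 77.7% in PZKO, so its results are rough. *Jun* was lower in PZKO in oligodendrocytes (42.6 CPM and 28.3 CPM, −0.59, −0.81 to −0.37), in oligodendrocyte precursor cells (45.8 CPM and 27.4 CPM, −0.74, −1.26 to −0.22) and in astrocytes (56.6 CPM and 36.6 CPM, −0.63, −0.83 to −0.43). The oligodendrocyte value of *Jun* came to −0.28 with equal weights for the clusters and to −0.24 relative to the short genes. One of the 4 oligodendrocyte clusters held 567 PS19 nuclei and 152 PZKO nuclei. The astrocyte value of *Jun* turned to 0.18 after the subtraction and was −0.22 relative to the short genes. *Jund* was lower in PZKO too, at −0.49 (−0.67 to −0.32) in oligodendrocytes and −0.50 (−0.74 to −0.27) in astrocytes. Relative to the short genes these *Jund* values were −0.14 and −0.10. *Ttr* in astrocytes stood at 407 CPM in PS19 and 49.8 CPM in PZKO, and the genes of handling and heat shock had a median log2 ratio of −0.63 there. Their part in these values was not tested. In microglia the *Jun* interval spanned 0 (30.05 CPM and 24.0 CPM, −0.32, −0.76 to 0.12).

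Endothelial cells were the class in which *Jun* and *Jund* were higher in PZKO by intervals that did not span 0, with log2 ratios of 0.45 (0.11 to 0.80) and 0.43 (0.04 to 0.82). Neither reached a fold of 1.5, and both turned when each nucleus had the same weight, to −0.21 and −0.35. Without the highest nucleus of each library *Jun* was at 0.43 (0.07 to 0.80) and *Jund* at 0.39 (−0.009 to 0.79), an interval that spanned 0. In this class the ribosomal protein genes (median 0.02), the mitochondrially encoded genes (0.02) and the genes of handling and heat shock (0.02) lay near 0, unlike in neurons. *Ttr* stood at 897 CPM and 110 CPM. The part of these groups in the endothelial values of *Jun* and *Jund* was not tested.

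The wider AP-1 pathway was examined through gene lists in the 2 neuronal classes. Of 8 other basic leucine zipper partners with at least 50 UMIs in excitatory neurons, 0 passed the fold of 1.5 in either direction. Of all genes in the class, 3.36% passed it upward and 6.4% downward. The median of the partners was −0.25. *Atf7* stood at 132 CPM and 122 CPM, and *Jdp2*, a repressor that pairs with Jun, at 35.6 CPM and 38.9 CPM. Among 19 JNK, ERK and p38 kinases and their scaffolds 0 passed in either direction (median 0.06), against the same 3.36% and 6.4% of all genes. Lists this short can hold 0 such genes at these shares, so the counts do not show that the pathway was unchanged. *Mapk3*, which encodes ERK1, stood at 12.8 CPM and 8.94 CPM, and *Map3k5*, a stress-activated kinase upstream of JNK and p38, at 75.5 CPM and 92.2 CPM. Of 15 factors that act at the *Fos* and *Jun* promoters, bound to DNA or as coactivators, 1 passed downward, close to the 6.4% of all genes. It was *Elk3*, at 7.28 CPM and 4.52 CPM, beside *Elk1* at 19.8 CPM and 13.9 CPM and *Srf* at 4.39 CPM and 3.38 CPM. The 4 genes of ubiquitin ligases, or of their complexes, that act on Jun lay between −0.12 for *Itch* and 0.07 for *Cop1*.

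Of 9 MAP kinase phosphatases in excitatory neurons, 1 passed the fold of 1.5 upward and 1 downward, against 3.36% and 6.4% of all genes, and their median of −0.08 was that of all genes. *Dusp1*, an immediate early gene whose product shuts off JNK and p38, stood at 4.21 CPM and 6.72 CPM (0.68, 0.46 to 0.89) and passed the fold of 1.5 upward. *Dusp5*, which acts on ERK in the nucleus, stood at 6.19 CPM and 9.16 CPM (0.57, 0.39 to 0.75), and *Dusp2* passed downward on 35 and 25 UMIs. In inhibitory neurons 0 of 8 phosphatases with at least 50 UMIs passed, against 2.74% of all genes upward and 6.17% downward. *Dusp1* stood there at 4.86 CPM and 4.30 CPM (−0.18, −0.68 to 0.33).

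Among other genes of neuronal activity, 15 of the 18 with at least 50 UMIs in excitatory neurons were above 0. The fold of 1.5 was passed by 6 upward and 0 downward, against 3.36% and 6.4% of all genes, and the median log2 ratio was 0.49 against −0.08 for all genes. *Npas4*, a factor that responds to calcium entry, stood at 7.30 CPM and 13.3 CPM (0.87, 0.71 to 1.03), *Nr4a1* at 41.4 CPM and 68.7 CPM (0.73, 0.66 to 0.80) and *Homer1*, a synaptic scaffold, at 193 CPM and 320.2 CPM (0.73, 0.70 to 0.76). In the *Exph5* and *Prr16*-like cluster 13 of 17 passed upward, against 3.58% of all genes there, and the median was 0.94. In the dentate, CA1-like and CA3-like clusters together 0 of 16 passed upward and 2 passed downward (2.76% and 6.19% of genes), with a median of −0.13. In inhibitory neurons 2 of 15 passed in each direction, against 2.74% of all genes upward and 6.17% downward, with *Egr3* at 2.08 CPM and 4.30 CPM and *Scg2*, a secretory granule protein, at 114 CPM and 63.8 CPM.

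Of 9 injury genes that often accompany *Jun* in damaged neurons, 7 were below 0 in excitatory neurons, with a median of −0.18, against 61.8% of all genes and a median of −0.08. None passed the fold of 1.5 downward (0 of 9, against 6.4% of all genes), and 1 passed it upward (3.36% of all genes), *Ecel1* on 20 and 53 UMIs, with an interval that spanned 0. *Stmn4* stood at 48.9 CPM and 38.6 CPM (−0.34), *Sox11* at 22.4 CPM and 17.7 CPM (−0.34), and *Gap43*, a growth cone protein, at 61.4 CPM and 76.5 CPM (0.32, 0.26 to 0.37). In inhibitory neurons 7 of 7 were below 0, against 56.0% of all genes, with a median of −0.37 against −0.04. The fold of 1.5 downward was passed by 2, *Stmn4* at 43.3 CPM and 26.8 CPM and *Hrk* on 53 and 61 UMIs, against 6.17% of all genes.

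**Figure D5:**
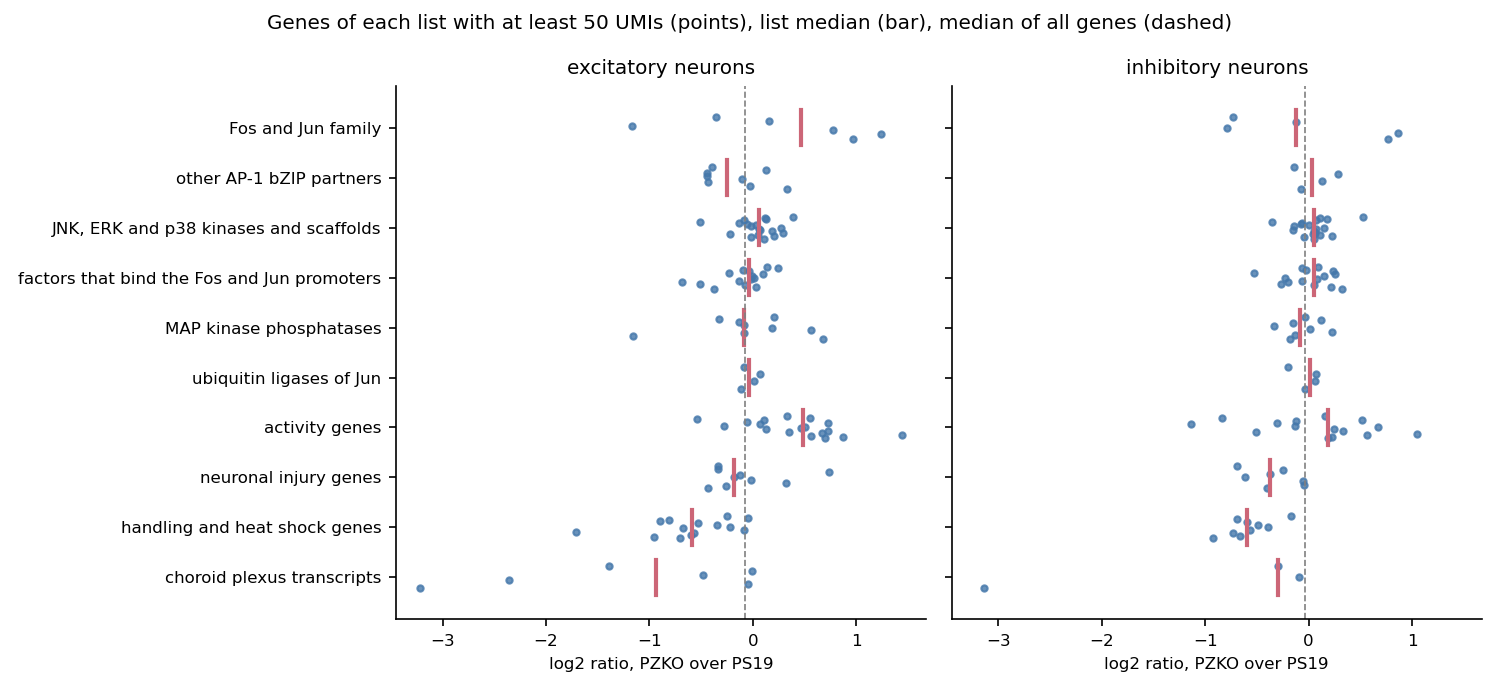
Log2 ratio of PZKO over PS19 (horizontal axis) of the genes with at least 50 UMIs in each list (vertical axis) in excitatory (left) and inhibitory (right) neurons; points are genes, red bars list medians, and the dashed line is the median of all genes tested. The family spreads from −1.17 to 1.24 in excitatory neurons, activity genes lie mostly above 0 and genes of handling and heat shock below it.

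Genes with a similar pattern of levels were sought over 22 columns, the 2 libraries of 11 classes, among 17019 genes. The likeness is Pearson's r of log levels and is a description, since the columns of a library share its depth and free RNA. For *Fos* the nearest were *Pantr1* (0.86), *Gm26743* (0.80) and *Gpm6b* (0.79), for *Jun* they were *Bcap29* (0.86), *Prnp* (0.85) and *Cbx3* (0.85), and for *Jund* they were *Ptma* (0.94), *Rps21* (0.90) and *Chchd2* (0.90). *Fosl2* was nearest to *Ptgs2* (0.80), *Fosb* to *Skap1* (0.82) and *Junb* to *Vamp4* (0.80). Since *Fosb* had at least 50 UMIs in excitatory neurons alone, its likeness rests mostly on levels near 0 and is rough.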

How the data were processed

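snRNA-seq counts were analysed for 1 PS19 and 1 PZKO library of pooled hippocampi. With Cell Ranger and the mm10 reference the authors counted the UMIs of each gene in each nucleus, and the deposited values are these raw counts. The labels name Cell Ranger 7.0.1 and the matrix headers 8.0.1. The labels also say that animals were processed separately, but no nucleus carries the label of an animal.

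Nuclei with at least 600 UMIs, 300 genes and at most 5% mitochondrial UMIs were kept, and doublets were removed at 0.8% per 1000 nuclei (876 and 821). Both libraries were clustered together without integration (scanpy 1.11.5, leidenalg 0.10.2, 2000 variable genes without the compared genes, 30 components, 20 neighbours, resolution 1). A cluster took the name of the marker list with the highest mean z score among those with at least 3 detected markers. It stayed unnamed where another list had more markers, or at least 2, among its top 10 genes by fold, where its score was under 0.5 with fewer than 5 detected markers, or where it was shallow with none of its own markers in the top 10. Neuronal subtypes also needed a marker of their own there. These limits were chosen with the clusters in view. The 4 unnamed clusters held 481 PS19 nuclei and 386 PZKO nuclei.

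UMIs were summed per class and scaled to CPM. The 95% interval of a log2 ratio is Clopper-Pearson's, from the split of a gene's UMIs. Its computation was checked on simulated Poisson counts, which share its assumption of independent UMIs. That check cannot show how the interval does where UMIs gather in single nuclei. The interval treats UMIs as independent, and covers no difference between nuclei, mice or pools. Counts of genes past a fold of 1.5 cover genes with 50 or more UMIs in a class. With 1 library per genotype no test was made. The text names every member, the 3 most similar genes per member at most, and from each list up to 4 genes per neuronal class ranked by how far the nearer end of the interval lies from 0, with exceptions named where a count was small. The members, lists and rules were chosen with earlier results of these data known. Alternatives covered scaling (edgeR 4.0.16, DESeq2 1.42.0), thinning, filters, doublets, free RNA, clustering and the mix of clusters.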

Additional observations from a re-analysis of the deposited data

Results flagged for a closer look

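Contrasts between classes, 4 in all, were singled out because the interval of a member lay above 0 in one class and below 0 in another. With 1 library per genotype the difference was not tested in any of them. *Fos* had a log2 ratio of PZKO over PS19 of 0.97 in excitatory neurons and of −0.62 in oligodendrocytes. *Jun* had a log2 ratio of 0.45 in endothelial cells and of −1.17 in excitatory neurons. *Junb* had a log2 ratio of 0.15 in excitatory neurons and of −0.41 in astrocytes. *Jund* had a log2 ratio of 0.43 in endothelial cells and of −0.73 in inhibitory neurons.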

How the results depend on the processing

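In excitatory neurons *Fos* kept its direction under 17 of 18 alternatives, with log2 ratios between −0.062 and 1.26. It turned to −0.062 in the dentate granule, CA1 and CA3 clusters without the highest nucleus of each library, where its interval spanned 0, so the direction in those clusters rested on single nuclei. It was 0.78 without removal of doublets, 1.21 after subtraction of the library-wide profile, 0.56 with equal weights of the clusters, 0.77 without the dentate granule cluster, 0.22 in the dentate granule, CA1 and CA3 clusters alone and 1.26 relative to genes spanning under 5000 bases. *Jun* in excitatory neurons kept its direction under 18 of 18, at −1.33, −0.74, −0.79, −0.93 and −0.88 under the same alternatives other than doublets, and at −0.95 in the dentate granule, CA1 and CA3 clusters without the highest nuclei. In inhibitory neurons *Jun* was −1.59 after the subtraction and −0.46 relative to genes spanning under 5000 bases. Genes past a fold of 1.5 upward there numbered 393, or 247 with at least 20 UMIs in each library. Of 342 values of the other log2 ratios, 323 kept their direction and 19 changed sign. In 8 of the 19 the main interval spanned 0, among them *Junb* in inhibitory neurons, at 0.74 without removal of doublets. The other 11 were *Fosb* in excitatory neurons (−0.14 in the dentate granule, CA1 and CA3 clusters and −0.10 there without the highest nuclei), *Junb* in excitatory neurons (−0.44 and −0.45 in the same settings and −0.07 with equal weights), *Fos* in oligodendrocytes (0.43, equal weights), *Jun* and *Junb* in astrocytes (0.18 and 0.10, subtraction), *Jun* in endothelial cells (−0.21, equal weight of nuclei) and *Jund* in endothelial cells (−0.35, the same, and −0.02 thinned). Thinning also brought *Fosb* in excitatory neurons to 0.68 and *Fosl2* in inhibitory neurons to 0.17. The cause of these shifts was not tested. Several alternatives barely alter a value, so the counts of kept directions are not counts of independent checks. For *Fos* in excitatory neurons, edgeR and DESeq2 scaling gave 1.04 and 1.05, and a clustering resolution of 0.5 gave 0.97. The choice of the dentate granule, CA1 and CA3 clusters, the scaling to short genes and the removal of the highest nuclei were added after seeing the data. The subtraction gave no value in oligodendrocytes, microglia and endothelial cells, where *Ttr* exceeded its library-wide share. No paired analysis was possible because each genotype has 1 library. Depth limits *Fosb* outside excitatory neurons and every member in small classes.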
